A study of Mus musculus with 8 samples.

Results

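The 10 genes described here are epithelial genes of the thymus and genes linked to the transcription factor p63, followed across 8 mouse thymic lymphomas. They were chosen by symbol (Krt5, Krt14, Krt8, Krt18, Epcam, Cdh1, Cdh3, Lamb3, Itgb4 and Foxn1), out of 13681 symbols in the deposited table, and all 10 were among the 12921 genes expressed highly enough to be tested. RNA sequencing was carried out on tumours of C57BL/6 mice aged 10 weeks, all carrying p53-/-, taken 48 h after an adenovirus had been injected into the tumour. The ΔNp73Δ/Δ;p53-/- group (n = 3) and the ΔNp63Δ/Δ;p53-/- group (n = 3) received Ad-CRE-mCherry, a virus that carries Cre recombinase and a red fluorescent marker. The control group, labelled ΔNfl/fl;p53-/- (n = 2), received Ad-mCherry, so Cre and genotype cannot be told apart in a comparison with control. ΔN forms of p63 and p73 lack the amino-terminal transactivation domain of the full-length proteins. The control label does not say which of these genes is floxed. No source used here gives the share of tumour cells that took up the virus, or states that each library is a different animal, so p-values measure the spread between these samples, which may be technical.

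The thymus is a lymphoid organ held up by a network of epithelial cells. Cortical epithelial cells, mostly positive for the keratins Krt8 and Krt18, support early thymocytes and positive selection, and medullary epithelial cells, many of them positive for Krt5 and Krt14, take part in negative selection. Foxn1 is the transcription factor without which thymic epithelium does not mature, as in the nude mouse. p63, made mainly as its ΔN form in stratified epithelia and in the thymic epithelium, maintains epithelial progenitors and is known to act on genes for basal keratins, cadherins, integrins and laminins. These genes were taken here as markers of the epithelial stroma among the malignant T-lineage cells, and whether they were confined to it was not tested. In bulk tissue fewer cells of a type and less RNA per cell cannot be told apart.

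Values are FPKM (fragments per kilobase of transcript, scaled to library size), a measure per transcript length, quantile-normalised between libraries by the authors. Sequencing depth is unknown without counts. Ranked by mean FPKM among all tested genes, the 10 reached from the 98.3rd percentile (Krt18), with Krt5 and Krt8 close behind at 96.1 and 96.0, to the 30.7th (Itgb4). A single library, replicate 2 of the ΔNp63Δ/Δ group, stood apart from the rest: its median correlation with the others over all tested genes was 0.847, against 0.915 to 0.956 for the other 7 libraries. The counts and fold changes of the 10 genes are given with and without it. It was also the lowest of the libraries for all 10 genes. Leaving it out therefore had to raise each log2 fold change of the ΔNp63Δ/Δ label against control. Calls without it describe the remaining libraries and are no independent support. The targeted gene was looked at first. Trp63, the gene of p63, had 4 transcript entries, each starting at the internal ΔN promoter in the GENCODE annotation. Its most abundant entry stood at 13.8, 11.3 and 6.38 FPKM in the ΔNp73Δ/Δ libraries, at 6.57, 1.05 and 9.91 FPKM in the libraries labelled ΔNp63Δ/Δ, and at 5.21 and 3.38 FPKM in controls. In that entry replicates 1 and 3 of the ΔNp63Δ/Δ label lay above both controls and replicate 2 below them, but the other entries gave other orders. Summed over the 4 entries, Trp63 was at 32.1, 29.1 and 23.8 FPKM in ΔNp73Δ/Δ libraries, at 14.3, 2.41 and 19.8 FPKM in libraries labelled ΔNp63Δ/Δ, and at 14.9 and 14.5 FPKM in controls, so that replicate 3 alone of the ΔNp63Δ/Δ label lay above the controls. An FPKM covers the whole transcript and gives no value for the deleted stretch alone, so these levels do not check the deletion, and the group is called by its label throughout. Trp73 had no entry under that symbol in the deposited table. The tumours carried the T-lineage markers that their label implies. The summed level of 18 thymocyte and T cell genes was 2717 to 4396 FPKM in ΔNp73Δ/Δ libraries, 2658 to 4841 FPKM in libraries labelled ΔNp63Δ/Δ and 5749 to 6205 FPKM in controls.

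Promoter windows were read for 7 of the 10 genes from RefSeq (build GRCm38.p6), each from 250 bases before to 50 bases after the annotated start, 5′ to 3′ on the gene's strand. Those of 4 genes are shown: Krt5 and Foxn1, whose windows hold a match to the decameric half-site of the p53 family, and Krt8 and Krt18, which lie next to each other on chromosome 15 with 0 protein-coding genes between them. Capitals mark every match to a searched motif.
Krt5: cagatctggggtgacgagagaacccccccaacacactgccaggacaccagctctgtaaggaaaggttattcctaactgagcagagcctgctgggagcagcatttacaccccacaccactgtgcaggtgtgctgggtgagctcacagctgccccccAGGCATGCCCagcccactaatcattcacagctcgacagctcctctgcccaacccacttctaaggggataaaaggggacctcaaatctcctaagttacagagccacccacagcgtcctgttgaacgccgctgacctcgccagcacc
Foxn1: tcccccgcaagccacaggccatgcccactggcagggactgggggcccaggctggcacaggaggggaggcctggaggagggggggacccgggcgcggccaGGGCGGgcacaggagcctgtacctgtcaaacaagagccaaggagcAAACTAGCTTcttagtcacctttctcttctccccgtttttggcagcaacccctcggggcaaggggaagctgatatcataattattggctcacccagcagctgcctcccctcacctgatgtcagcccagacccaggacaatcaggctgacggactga
Krt8: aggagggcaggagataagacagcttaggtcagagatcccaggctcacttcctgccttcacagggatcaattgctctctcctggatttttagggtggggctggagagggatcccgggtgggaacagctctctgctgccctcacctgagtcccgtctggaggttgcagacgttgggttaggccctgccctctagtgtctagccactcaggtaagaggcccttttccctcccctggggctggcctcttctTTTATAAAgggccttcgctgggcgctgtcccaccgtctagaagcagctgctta
Krt18: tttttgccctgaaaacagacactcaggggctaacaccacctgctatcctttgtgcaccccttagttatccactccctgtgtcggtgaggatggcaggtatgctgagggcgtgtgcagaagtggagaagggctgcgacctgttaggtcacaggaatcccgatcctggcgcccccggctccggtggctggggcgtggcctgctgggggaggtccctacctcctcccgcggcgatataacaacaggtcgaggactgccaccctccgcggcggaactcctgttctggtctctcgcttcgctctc
The Krt5 window is chr15:101712856-101713155 (minus strand) and the Foxn1 window chr11:78386559-78386858 (minus strand). The Krt8 window is chr15:102004293-102004592 (minus strand) and the Krt18 window chr15:102027966-102028265 (plus strand). The 4 motifs searched, on both strands, were the p53-family half-site, the TATA box TATAAA, the GC box GGGCGG and the AP-1 motif TGANTCA. The half-site match lay at -95 to -86 from the annotated start in Krt5 and at -106 to -97 in Foxn1, and a half-site was present in 8.356% of all 32851 mouse promoter windows of the same length. TATAAA, matched in Krt8 on both strands in an overlapping stretch across the annotated start itself, was in 13.62% of windows, and GGGCGG, matched in Foxn1 at -151 to -146 and in Epcam at -58 to -53, was in 35.66%. TGANTCA, in 7.808% of all windows, had no match in the windows of these genes. The windows of Krt14, Krt18 and Lamb3 held no match to any of the 4 motifs. The last stretch of a window was also looked for in GENCODE transcripts of the same gene. It was found in sense for 4 of the 7 genes, Krt5 among those shown, and not for Foxn1, Krt8 and Krt18, so for these 3 the annotated start was not matched to a transcript. A match is a description of the sequence and not a site of binding, and no match says only that these letters are not in the window.

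Krt5 and Krt14, which pair in the keratin filaments of basal and medullary thymic epithelium, were at their highest in the ΔNp73Δ/Δ libraries. Krt5 was at 145, 173 and 113 FPKM in ΔNp73Δ/Δ libraries, at 134, 24.7 and 111 FPKM in libraries labelled ΔNp63Δ/Δ, and at 76.1 and 76.9 FPKM in controls. Krt14 was at 53.6, 72.7 and 39.2 FPKM in ΔNp73Δ/Δ libraries, at 36.0, 9.34 and 33.9 FPKM in libraries labelled ΔNp63Δ/Δ, and at 22.8 and 23.9 FPKM in controls. For both genes all 3 ΔNp73Δ/Δ libraries and replicates 1 and 3 of the ΔNp63Δ/Δ label lay above the controls, while replicate 2 of that label lay below them. The difference on the log2(FPKM + 1) scale (log2FC) between ΔNp73Δ/Δ and control was 0.88 (standard error, SE, 0.65) for Krt5, with limma's adjusted p of 0.458, and 1.16 (SE 0.55, adjusted p = 0.268) for Krt14. Neither passed the threshold of 0.05. Without replicate 2 of the ΔNp63Δ/Δ label, which entered the shared estimate of the spread, both genes rose in ΔNp73Δ/Δ tumours, with an unchanged log2FC and limma's adjusted p of 0.0120 for Krt5 and 0.00988 for Krt14. For the ΔNp63Δ/Δ label against control, Krt5 had a log2FC of -0.090 (SE 0.65) with all libraries and 0.66 (SE 0.20, limma adjusted p = 0.0538) without replicate 2.

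Krt8 and Krt18, the keratin pair of simple epithelia and of cortical thymic epithelium, varied widely within the groups. Krt8 was at 112, 178 and 96.8 FPKM in ΔNp73Δ/Δ libraries, at 108, 16.2 and 149 FPKM in libraries labelled ΔNp63Δ/Δ, and at 83.0 and 88.0 FPKM in controls. Krt18, the most abundant of the 10 genes, was at 282, 450.4 and 226 FPKM in ΔNp73Δ/Δ libraries, at 194, 31.8 and 312 FPKM in libraries labelled ΔNp63Δ/Δ, and at 237 and 211 FPKM in controls. The 3 ΔNp73Δ/Δ libraries lay above both controls for Krt8 but overlapped them for Krt18. Neither gene passed the test with all libraries or without replicate 2 of the ΔNp63Δ/Δ label. In ΔNp73Δ/Δ against control the log2FC was 0.54 (SE 0.84, limma adjusted p = 0.735) for Krt8 and 0.45 (SE 0.86, limma adjusted p = 0.787) for Krt18. In the ΔNp63Δ/Δ label against control, Krt18 had a log2FC of -0.83 (SE 0.86, limma adjusted p = 0.728) with all libraries and 0.14 (SE 0.34, limma adjusted p = 0.801) without replicate 2, so its direction rested on that library. Keratin genes resemble one another and have pseudogenes, and how the deposited values share out reads between near-identical sequences is not given in the sources used here.

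**Figure D1:**
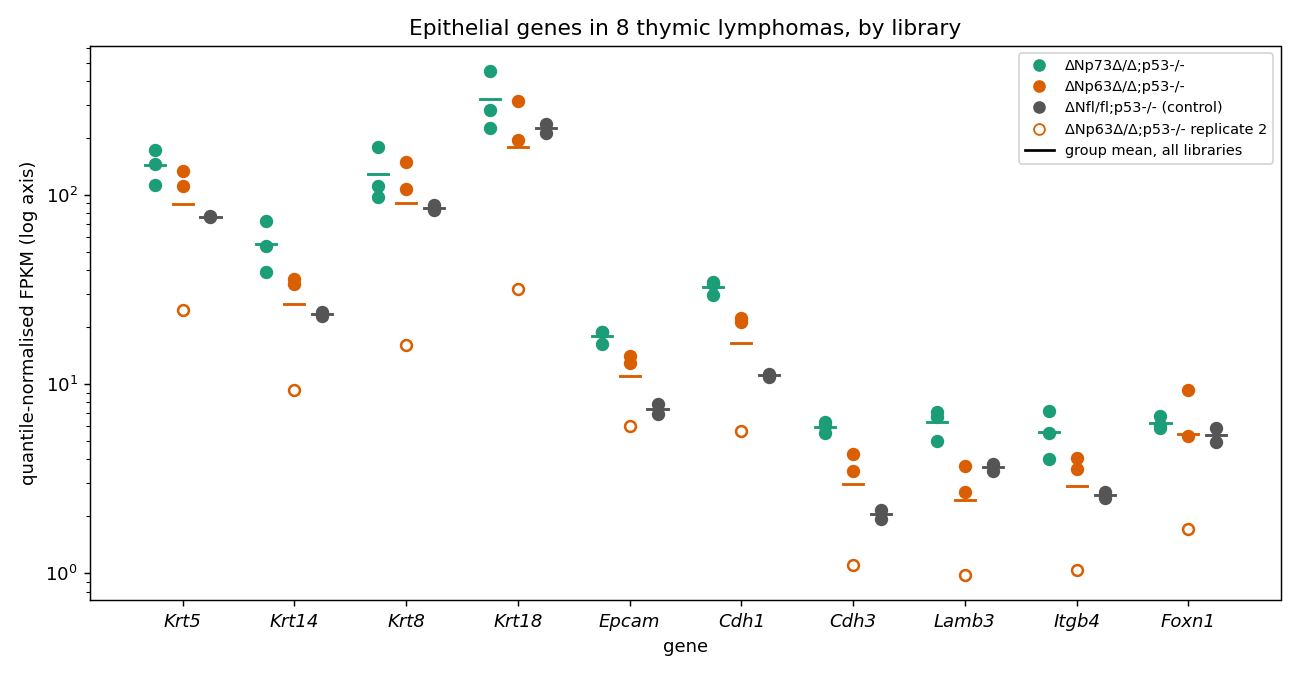
Quantile-normalised FPKM (log axis) of the 10 epithelial genes, with a point per library and a line at each group's mean, for ΔNp73Δ/Δ (n = 3), libraries labelled ΔNp63Δ/Δ (n = 3) and control (n = 2). The open point, replicate 2 of the ΔNp63Δ/Δ label, is the lowest of the 8 libraries for every gene, and the 3 ΔNp73Δ/Δ points lie above both controls for all genes but Krt18.

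The plot of levels by library shows the ΔNp73Δ/Δ libraries apart from all others for the 3 adhesion genes, and for Krt14 and Lamb3 as well. Epcam, an adhesion molecule of the epithelial surface, was at 18.9, 18.8 and 16.4 FPKM in ΔNp73Δ/Δ libraries, at 14.1, 6.00 and 12.9 FPKM in libraries labelled ΔNp63Δ/Δ, and at 7.87 and 6.97 FPKM in controls. Cdh1, the E-cadherin of adherens junctions, was at 33.7, 34.7 and 29.7 FPKM in ΔNp73Δ/Δ libraries, at 21.3, 5.63 and 22.4 FPKM in libraries labelled ΔNp63Δ/Δ, and at 10.96 and 11.3 FPKM in controls. Cdh3, the P-cadherin of basal epithelia and a known target of p63 in skin, was at 5.98, 6.28 and 5.54 FPKM in ΔNp73Δ/Δ libraries, at 3.49, 1.11 and 4.26 FPKM in libraries labelled ΔNp63Δ/Δ, and at 1.93 and 2.17 FPKM in controls. For all 3 genes every ΔNp73Δ/Δ library lay above every other library. The libraries labelled ΔNp63Δ/Δ fell on both sides of the controls, with replicates 1 and 3 above them and replicate 2 below. With all libraries the log2FC in ΔNp73Δ/Δ against control was 1.17 (SE 0.32, limma adjusted p = 0.119) for Epcam, 1.47 (SE 0.51, limma adjusted p = 0.172) for Cdh1 and 1.18 (SE 0.36, limma adjusted p = 0.139) for Cdh3. Without replicate 2 of the ΔNp63Δ/Δ label, all 3 genes rose in ΔNp73Δ/Δ tumours, with limma's adjusted p of 0.000947 for Epcam, 0.000642 for Cdh1 and 0.00115 for Cdh3. They also rose in the ΔNp63Δ/Δ label against control in that fit, by a log2FC of 0.79 (SE 0.12, adjusted p = 0.00551) for Epcam, 0.91 (SE 0.11, adjusted p = 0.00265) for Cdh1 and 0.67 (SE 0.13, adjusted p = 0.0124) for Cdh3. With all libraries the same 3 differences from control were 0.44, 0.32 and 0.27, and none passed. Replicate 2 was the lowest library for all 3 genes, so leaving it out, with replicates 1 and 3 remaining, had to raise these differences.

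Lamb3 and Itgb4 anchor basal epithelium to its basement membrane. Lamb3, the beta chain of the laminin under hemidesmosomes, was at 6.67, 7.16 and 4.98 FPKM in ΔNp73Δ/Δ libraries, at 2.68, 0.980 and 3.69 FPKM in libraries labelled ΔNp63Δ/Δ, and at 3.50 and 3.77 FPKM in controls. Itgb4, the integrin beta subunit of the hemidesmosome, was at 5.54, 7.19 and 4.02 FPKM in ΔNp73Δ/Δ libraries, at 4.05, 1.05 and 3.57 FPKM in libraries labelled ΔNp63Δ/Δ, and at 2.69 and 2.49 FPKM in controls. Both genes were above the controls in all 3 ΔNp73Δ/Δ libraries, but they parted in the ΔNp63Δ/Δ label. There Itgb4 lay above the controls in replicates 1 and 3, whereas Lamb3 lay below both controls in replicates 1 and 2 and between them in replicate 3. Of the 10 genes, Lamb3 alone kept a log2FC below 0 in the ΔNp63Δ/Δ label against control when replicate 2 was left out (-0.16, SE 0.19, limma adjusted p = 0.577, against -0.51, SE 0.35, limma adjusted p = 0.569, with all libraries). It also had the smallest adjusted p of the 10 genes between the deletion groups, where the log2FC of ΔNp73Δ/Δ minus ΔNp63Δ/Δ was 1.15 (SE 0.31, limma adjusted p = 0.421), which did not pass. Against control, without replicate 2 of the ΔNp63Δ/Δ label, Lamb3 and Itgb4 rose in ΔNp73Δ/Δ tumours by a log2FC of 0.64 (SE 0.17, limma adjusted p = 0.0282) and 0.85 (SE 0.20, limma adjusted p = 0.0184). Cdh3 and Itgb4 each had a second transcript entry, which peaked at 1.67 FPKM and was not used.

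Foxn1, the regulator of thymic epithelial identity, moved least of the 10 genes in ΔNp73Δ/Δ tumours. Foxn1 was at 5.86, 6.82 and 6.10 FPKM in ΔNp73Δ/Δ libraries, at 5.34, 1.71 and 9.35 FPKM in libraries labelled ΔNp63Δ/Δ, and at 5.85 and 4.94 FPKM in controls. The lowest ΔNp73Δ/Δ library exceeded the higher control by less than the gap between the controls, and replicate 3 of the ΔNp63Δ/Δ label was the highest of all 8 libraries. Foxn1 did not pass in ΔNp73Δ/Δ against control (log2FC 0.19, SE 0.49, limma adjusted p = 0.845), nor without replicate 2 of the ΔNp63Δ/Δ label (limma adjusted p = 0.511). In the ΔNp63Δ/Δ label against control the log2FC was -0.18 (SE 0.49, limma adjusted p = 0.911) with all libraries and 0.35 (SE 0.22, limma adjusted p = 0.299) without replicate 2.

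Counted over all 10 genes, none passed limma's adjusted test with all libraries in any of the 3 comparisons. The share of all genes tested that passed was itself small, at 0.0542% in ΔNp73Δ/Δ against control, 0.0929% in the ΔNp63Δ/Δ label against control and 0.0542% in ΔNp73Δ/Δ against the ΔNp63Δ/Δ label. At an unadjusted p under 0.05, 3 of the 10 passed in ΔNp73Δ/Δ against control (Epcam, Cdh1 and Cdh3), against 21.3% of all genes. At the same unadjusted level 0 of 10 passed in the ΔNp63Δ/Δ label against control, against 13% of all genes, and 5 of 10 passed in ΔNp73Δ/Δ against the ΔNp63Δ/Δ label (Lamb3, Cdh3, Epcam, Cdh1 and Krt14), against 10.5%. By position of the libraries alone, 9 of the 10 genes had all 3 ΔNp73Δ/Δ libraries above both controls, a pattern that 27.7% of all genes showed. All 3 ΔNp73Δ/Δ libraries lay above all 3 libraries labelled ΔNp63Δ/Δ for 5 of the 10 genes, against 10.3% of all genes, and 0 of 10 had the 3 libraries labelled ΔNp63Δ/Δ above both controls, against 12.6%. The log2FC was above 0 for all 10 genes in ΔNp73Δ/Δ against control, where 43.3% of all genes were above 0, and for all 10 in ΔNp73Δ/Δ against the ΔNp63Δ/Δ label, where 48.1% were. The median over the 10 genes was 0.86 in ΔNp73Δ/Δ against control (all genes -0.071), -0.064 in the ΔNp63Δ/Δ label against control (all genes -0.020) and 0.96 in ΔNp73Δ/Δ against the ΔNp63Δ/Δ label (all genes -0.018). Both comparisons with control share the same 2 control libraries.

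Leaving out replicate 2 of the ΔNp63Δ/Δ label raised the counts of genes passing across the whole table as well as among the 10. In ΔNp73Δ/Δ against control 7 of the 10 genes then rose, against 16.8% of all genes that rose and 16.1% that fell. The 7 were Krt5, Krt14, Epcam, Cdh1, Cdh3, Lamb3 and Itgb4, and the 3 that did not pass were Krt8, Krt18 and Foxn1. In the ΔNp63Δ/Δ label against control 3 of the 10 rose (Epcam, Cdh1 and Cdh3), against 11.7% of all genes, and in ΔNp73Δ/Δ against the ΔNp63Δ/Δ label 0 rose, against 0.0626%, with 5 at an unadjusted p under 0.05, against 15.6%. In that last comparison limma's smallest adjusted p among the 10 was 0.0925, for Cdh1. The genes with all libraries of the ΔNp63Δ/Δ label above both controls then numbered 7 (all genes 31.9%). The numbers in ΔNp73Δ/Δ against control (9, all genes 27.9%) and in ΔNp73Δ/Δ against the ΔNp63Δ/Δ label (5, all genes 16%) were those found with all libraries. The median log2FC over the 10 genes was then 0.56 in the ΔNp63Δ/Δ label against control and 0.41 in ΔNp73Δ/Δ against the ΔNp63Δ/Δ label. When all 8 libraries were kept but weighted by their estimated quality, 9, 4 and 3 of the 10 genes rose in ΔNp73Δ/Δ against control, the ΔNp63Δ/Δ label against control and ΔNp73Δ/Δ against the ΔNp63Δ/Δ label, where 23.5%, 16.3% and 1.42% of all genes rose. A fit on the ΔNp73Δ/Δ and control libraries alone also had 7 of the 10 genes rising, against 15.9% of all genes.

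**Figure D2:**
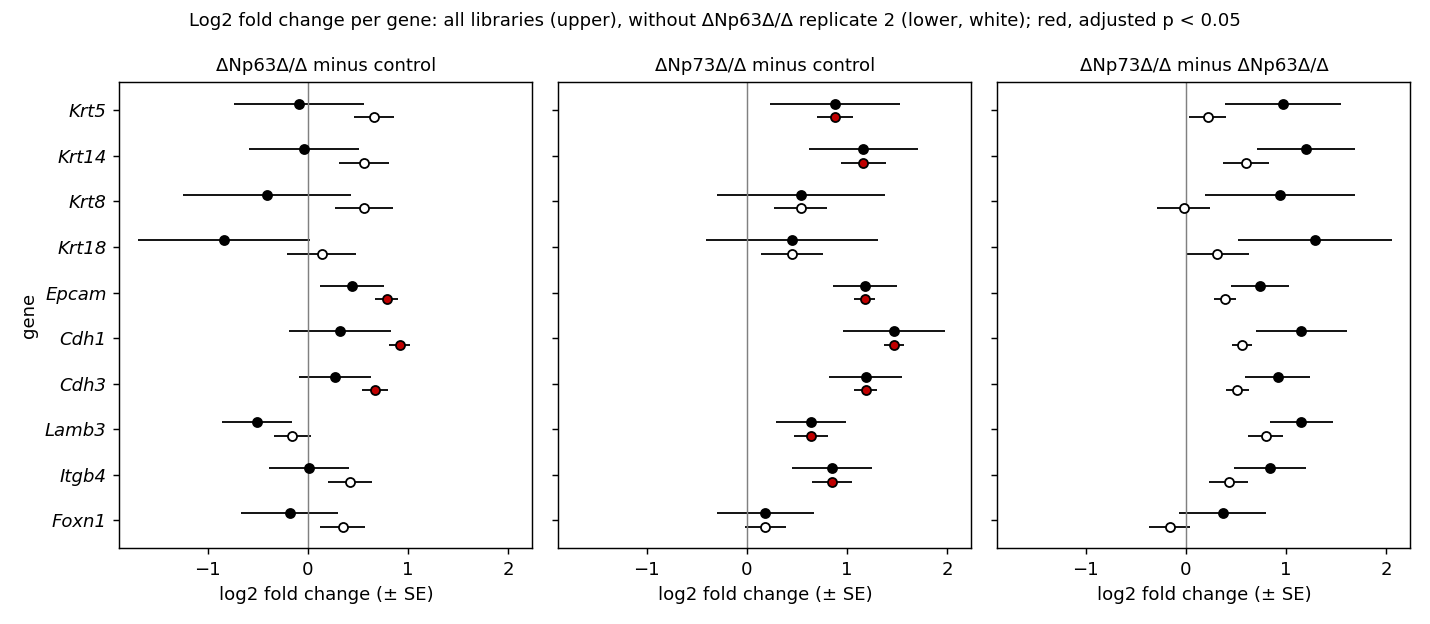
Log2 fold change on the log2(FPKM + 1) scale with its SE for each gene in 3 comparisons, with all libraries (upper, black) and without replicate 2 of the ΔNp63Δ/Δ label (lower, white, or red where limma's adjusted p was under 0.05). Red points are absent with all libraries; without the library that stood apart 3 genes pass in the ΔNp63Δ/Δ label against control and 7 in ΔNp73Δ/Δ against control, and the black SE bars are the wider ones.

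The plot of fold changes shows how these calls differed with and without a single library. Replicate 2 of the ΔNp63Δ/Δ label was the lowest of the 8 libraries for all 10 genes, whereas it was the lowest for 33.0% of all tested genes and the highest for 31.5%. The summed FPKM of the 10 genes was 98.5 in that library, against 522 and 661 in the other libraries of its label, 669, 955 and 542 in ΔNp73Δ/Δ libraries and 452 and 432 in controls. At the other end, replicate 2 of ΔNp73Δ/Δ was the highest of the 8 libraries for 8 of the 10 genes, against 10.2% of all genes. The 2 exceptions were Epcam, highest in replicate 1 of ΔNp73Δ/Δ, and Foxn1.

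Ratios between genes within a library set the 10 genes against each other, and they are given here as a description without a test. The ratio of Cdh1 to Cdh3, neighbouring genes with 0 protein-coding genes between them, was nearly the same in all groups, at 5.51 ± 0.136 in ΔNp73Δ/Δ libraries (SD, n = 3), 5.49 ± 0.550 in libraries labelled ΔNp63Δ/Δ (SD, n = 3) and 5.44 ± 0.336 in controls (SD, n = 2). The ratio of Krt18 to Krt8 was 2.53, 2.53 and 2.33 in ΔNp73Δ/Δ libraries, 1.80, 1.97 and 2.10 in libraries labelled ΔNp63Δ/Δ, and 2.85 and 2.40 in controls. For this ratio all 3 libraries of the ΔNp63Δ/Δ label, replicate 2 included, lay below the other 5. The ratio of Krt5 to Krt14 was 2.70, 2.38 and 2.89 in ΔNp73Δ/Δ libraries, 3.71, 2.64 and 3.27 in libraries labelled ΔNp63Δ/Δ, and 3.34 and 3.22 in controls. The ΔNp73Δ/Δ libraries lay below both controls in this ratio and overlapped those labelled ΔNp63Δ/Δ. The ratio of Krt5 to Krt8, a basal keratin over a simple one, was 1.30, 0.971 and 1.17 in ΔNp73Δ/Δ libraries, 1.24, 1.53 and 0.746 in libraries labelled ΔNp63Δ/Δ, and 0.917 and 0.874 in controls. All 3 ΔNp73Δ/Δ libraries were above the controls, and those labelled ΔNp63Δ/Δ fell on both sides. The ratio of Lamb3 to Itgb4 was 1.20, 0.996 and 1.24 in ΔNp73Δ/Δ libraries, 0.661, 0.937 and 1.03 in libraries labelled ΔNp63Δ/Δ, and 1.30 and 1.51 in controls, so both deletion groups lay below the controls.

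**Figure D3:**
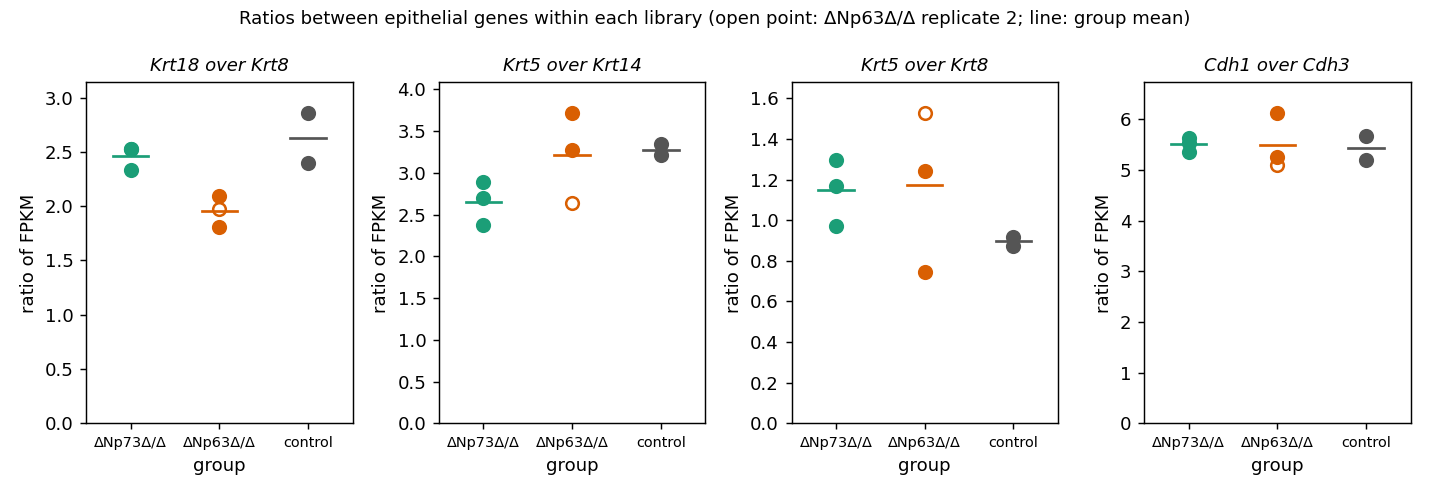
Ratios of FPKM between pairs of genes within each library for ΔNp73Δ/Δ (n = 3), libraries labelled ΔNp63Δ/Δ (n = 3) and control (n = 2), with a line at each group's mean and an open point for replicate 2 of the ΔNp63Δ/Δ label. Krt18 over Krt8 is lowest in the 3 libraries labelled ΔNp63Δ/Δ (1.80 to 2.10), and Cdh1 over Cdh3 stays between 5.09 and 6.12 in all 8 libraries.

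Genes of thymic epithelial function were examined beside the 10 as a list of 28, of which 27 were tested, Trp63 among them. With all libraries none passed limma's adjusted test in any comparison, and at an unadjusted p under 0.05 there were 3 above control in ΔNp73Δ/Δ, 1 above control in the ΔNp63Δ/Δ label and 3 above the ΔNp63Δ/Δ label in ΔNp73Δ/Δ, with 0 below in each. Without replicate 2 of the ΔNp63Δ/Δ label the last of these counts became 4 above and 4 below, where 15.6% of all genes passed that level. With all libraries the shares of all genes in the 3 comparisons, in either direction, were 21.3%, 13% and 10.5%. The median log2FC was 0.37 in ΔNp73Δ/Δ against control, and -0.093 in the ΔNp63Δ/Δ label against control, or 0.24 without replicate 2. The 3 most abundant were Ctsl, a cathepsin used by cortical epithelium, Ccl21a, a chemokine of medullary epithelium, and Ccl25, a chemokine that draws thymocyte precursors. Ctsl was at 466, 569 and 539 FPKM in ΔNp73Δ/Δ libraries, at 462, 90.7 and 582 FPKM in libraries labelled ΔNp63Δ/Δ, and at 582 and 592 FPKM in controls. Ccl21a was at 335, 229 and 269 FPKM in ΔNp73Δ/Δ libraries, at 701, 44.8 and 468 FPKM in libraries labelled ΔNp63Δ/Δ, and at 95.1 and 135 FPKM in controls. Ccl25 was at 147, 209.8 and 191 FPKM in ΔNp73Δ/Δ libraries, at 218, 10.3 and 381 FPKM in libraries labelled ΔNp63Δ/Δ, and at 373 and 349 FPKM in controls. Ccl21a thus lay above the controls, and Ccl25 below them, in all 3 ΔNp73Δ/Δ libraries.

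Without replicate 2 of the ΔNp63Δ/Δ label, 11 of the 27 genes of thymic epithelial function rose and 2 fell in ΔNp73Δ/Δ against control, and 9 rose and 0 fell in the ΔNp63Δ/Δ label against control. Of all genes, 16.8% rose and 16.1% fell in the first comparison and 11.7% rose in the second. In the second, 1497 genes rose among the 2882 that passed in either direction. Ccl21a rose in both, with a log2FC of 1.27 in ΔNp73Δ/Δ (limma adjusted p = 0.00942) and 2.33 in the ΔNp63Δ/Δ label (limma adjusted p = 0.00246). The 2 that fell in ΔNp73Δ/Δ, named after their values were seen, were Ccl25 (log2FC -0.99, limma adjusted p = 0.0235) and Dll4, the Notch ligand of cortical epithelium (log2FC -0.64, limma adjusted p = 0.0150). A further pair of cortical genes, Prss16, a thymus-specific protease, and Psmb11, the thymoproteasome subunit, was also chosen after values were seen. Prss16 was at 129, 162 and 143 FPKM in ΔNp73Δ/Δ libraries, at 114, 1.54 and 233 FPKM in libraries labelled ΔNp63Δ/Δ, and at 217 and 190.2 FPKM in controls. Psmb11 was at 6.18, 9.64 and 6.66 FPKM in ΔNp73Δ/Δ libraries, at 7.58, 0.118 and 13.7 FPKM in libraries labelled ΔNp63Δ/Δ, and at 14.2 and 11.9 FPKM in controls. Both lay below the controls in every ΔNp73Δ/Δ library, but neither passed in that comparison without replicate 2 (limma adjusted p = 0.211 for Prss16 and 0.0665 for Psmb11). These genes do not stand for the list, where 20 of the 27 had a log2FC above 0 in ΔNp73Δ/Δ against control and 7 below. Among those above 0 were Ly75 (0.11), Enpep (0.17) and Cxcl12 (0.37), also named after their values were seen. Aire, the regulator of medullary antigen expression, was at 2.80, 1.95 and 2.60 FPKM in ΔNp73Δ/Δ libraries, at 3.21, 3.37 and 2.18 FPKM in libraries labelled ΔNp63Δ/Δ, and at 3.62 and 3.31 FPKM in controls, and replicate 2 of the ΔNp63Δ/Δ label was not low for it.

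**Figure D4:**
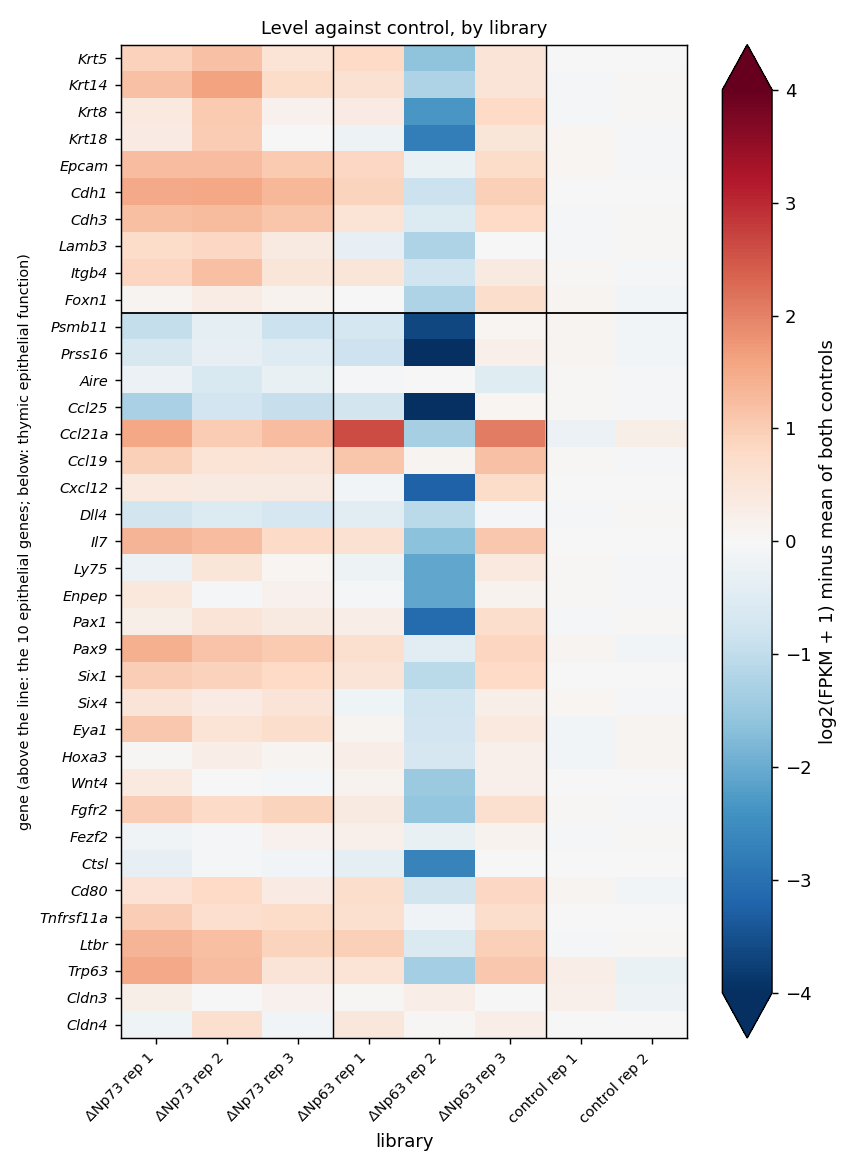
Log2(FPKM + 1) in each library minus the mean of both controls, for the 10 epithelial genes (above the line) and the 27 measured genes of thymic epithelial function (below it), with columns for 3 ΔNp73Δ/Δ, 3 labelled ΔNp63Δ/Δ and 2 control libraries. The colour scale ends at -4 and 4, which Prss16 and Ccl25 exceed in replicate 2 of the ΔNp63Δ/Δ label, and that column is below control for all 10 genes while Aire and Cldn4 in it are near control.

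The heat map by library sets the 10 genes beside this list. Genes linked to p63 formed a list of 32, of which 28 were tested, and it holds Krt5, Krt14, Cdh3, Lamb3 and Itgb4 themselves. With all libraries none passed limma's adjusted test. At an unadjusted p under 0.05, 10 lay above and 1 below control in ΔNp73Δ/Δ, against 21.3% of all genes in either direction. In the ΔNp63Δ/Δ label 1 lay above and 1 below, against 13%. The median log2FC was 0.87 in ΔNp73Δ/Δ, and 0.13 in the ΔNp63Δ/Δ label, or 0.55 without replicate 2. Without replicate 2 of that label, 12 rose and 0 fell in the ΔNp63Δ/Δ label, against 11.7% of all genes that rose. In ΔNp73Δ/Δ 21 rose and 1 fell, against 16.8% and 16.1% of all genes. The one of the list that fell, named after its value was seen, was Runx1 (limma adjusted p = 0.0354), a factor that thymocytes also use. Among the most abundant of the list, Satb1, a chromatin organiser also high in thymocytes, was at 87.7, 94.4 and 112 FPKM in ΔNp73Δ/Δ libraries, at 73.8, 34.5 and 116 FPKM in libraries labelled ΔNp63Δ/Δ, and at 105 and 78.5 FPKM in controls, and the groups overlapped. Zfp36, an mRNA decay factor found in many cell types, was at 73.2, 74.7 and 78.9 FPKM in ΔNp73Δ/Δ libraries, at 90.9, 17.7 and 95.3 FPKM in libraries labelled ΔNp63Δ/Δ, and at 63.3 and 58.2 FPKM in controls. It rose in both deletion groups against control without replicate 2, with limma's adjusted p of 0.0390 in ΔNp73Δ/Δ and 0.00761 in the ΔNp63Δ/Δ label.

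Genes that act with Lamb3 and Itgb4 were measured in a list of 11 hemidesmosome and basement membrane genes, 9 of them tested. With all libraries none passed limma's adjusted test, and 4 lay above control in ΔNp73Δ/Δ and 0 in the ΔNp63Δ/Δ label at an unadjusted p under 0.05. Without replicate 2 of the ΔNp63Δ/Δ label 5 rose in ΔNp73Δ/Δ and 2 in the ΔNp63Δ/Δ label, and none fell. The shares of all genes were 21.3% and 13% at the unadjusted level in either direction, and 16.8% and 11.7% rising without replicate 2. In ΔNp73Δ/Δ 16.1% of all genes fell, and in the ΔNp63Δ/Δ label 1497 of the 2882 passing genes rose. Itga6, the alpha subunit that pairs with Itgb4, was at 30.6, 32.0 and 27.4 FPKM in ΔNp73Δ/Δ libraries, at 28.5, 10.6 and 33.1 FPKM in libraries labelled ΔNp63Δ/Δ, and at 18.8 and 19.8 FPKM in controls. It rose in both deletion groups against control without replicate 2 (limma adjusted p = 0.00755 in ΔNp73Δ/Δ and 0.0121 in the ΔNp63Δ/Δ label). Cd151, a tetraspanin that binds these integrins, was at 21.5, 16.1 and 9.24 FPKM in ΔNp73Δ/Δ libraries, at 16.6, 6.05 and 12.5 FPKM in libraries labelled ΔNp63Δ/Δ, and at 8.40 and 9.22 FPKM in controls, and did not pass.

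Among 9 tested desmosome genes, none passed with all libraries and 5 rose in ΔNp73Δ/Δ and 2 in the ΔNp63Δ/Δ label against control without replicate 2, by limma's adjusted p. At an unadjusted p under 0.05 with all libraries the counts were 1 in ΔNp73Δ/Δ and 0 in the ΔNp63Δ/Δ label. The shares of all genes at that level were 21.3% and 13%, in either direction. Without replicate 2, 16.8% and 11.7% of all genes rose. Perp, a desmosomal protein that both p53 and p63 are known to regulate, was at 54.4, 53.6 and 41.1 FPKM in ΔNp73Δ/Δ libraries, at 33.5, 6.89 and 37.8 FPKM in libraries labelled ΔNp63Δ/Δ, and at 19.1 and 24.0 FPKM in controls. Dsp, the desmoplakin that ties desmosomes to keratins, was at 22.2, 22.6 and 18.6 FPKM in ΔNp73Δ/Δ libraries, at 12.6, 2.83 and 14.6 FPKM in libraries labelled ΔNp63Δ/Δ, and at 11.2 and 11.6 FPKM in controls. Both rose in ΔNp73Δ/Δ without replicate 2 (limma adjusted p = 0.00286 for Perp and 0.00329 for Dsp). Jup, the plakoglobin shared with adherens junctions, was at 14.5, 16.6 and 16.4 FPKM in ΔNp73Δ/Δ libraries, at 14.3, 16.8 and 14.1 FPKM in libraries labelled ΔNp63Δ/Δ, and at 16.8 and 13.0 FPKM in controls. Its groups overlapped throughout.

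Of 19 tested genes of epithelial junctions and surface, a list that holds Cdh1 and Epcam, none passed with all libraries, and 9 rose in ΔNp73Δ/Δ and 6 in the ΔNp63Δ/Δ label against control without replicate 2, with none falling, by limma's adjusted p. At an unadjusted p under 0.05 with all libraries, 8 lay above control in ΔNp73Δ/Δ and 1 in the ΔNp63Δ/Δ label. The shares of all genes at that level were 21.3% and 13%, in either direction. Without replicate 2, 16.8% and 11.7% of all genes rose. In ΔNp73Δ/Δ 16.1% of all genes fell, and in the ΔNp63Δ/Δ label 1497 of the 2882 passing genes rose. Ctnna1, the catenin that links cadherins to actin, was at 34.5, 33.7 and 27.8 FPKM in ΔNp73Δ/Δ libraries, at 25.3, 19.4 and 25.8 FPKM in libraries labelled ΔNp63Δ/Δ, and at 18.7 and 21.7 FPKM in controls, and rose in ΔNp73Δ/Δ without replicate 2 (limma adjusted p = 0.00959). Ctnnb1 and Spint2, the other abundant genes of the list, did not pass and lay between 45.02 and 65.9 FPKM and between 59.9 and 137 FPKM over the 8 libraries. Among 12 epithelial transcription and splicing factors none passed with all libraries, with 2 above control in ΔNp73Δ/Δ and 1 below control in the ΔNp63Δ/Δ label at an unadjusted p under 0.05. Without replicate 2, 5 rose in ΔNp73Δ/Δ, Trp63 (limma adjusted p = 0.0394) among them, and 0 in the ΔNp63Δ/Δ label. The shares of all genes were those given for the junction list. Esrp2, a splicing regulator of epithelia, was at 2.31, 4.04 and 5.14 FPKM in ΔNp73Δ/Δ libraries, at 3.25, 1.26 and 3.61 FPKM in libraries labelled ΔNp63Δ/Δ, and at 4.08 and 4.69 FPKM in controls, and did not pass.

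Keratins other than the 4 members formed a further list. Of 10 tested, none passed with all libraries. At an unadjusted p under 0.05, 2 lay above and 1 below control in ΔNp73Δ/Δ, against 21.3% of all genes. The ΔNp63Δ/Δ label had 0, against 13%. Without replicate 2, where 16.8% of all genes rose and 16.1% fell in ΔNp73Δ/Δ, 1 of these keratins rose and 1 fell by limma's adjusted p. The one that rose was Krt7, a simple-epithelial keratin, at 39.4, 46.8 and 22.6 FPKM in ΔNp73Δ/Δ libraries, 24.3, 7.19 and 29.7 FPKM in libraries labelled ΔNp63Δ/Δ, and 15.4 and 16.6 FPKM in controls (limma adjusted p = 0.0265). Krt1, a keratin of differentiated epidermis named after its value was seen, was the one that fell (limma adjusted p = 0.0231), at levels of 0.624 to 1.52 FPKM over the 8 libraries. Krt17, the most abundant of the list, was at 65.2, 93.8 and 70.5 FPKM in ΔNp73Δ/Δ libraries, at 86.2, 20.2 and 66.4 FPKM in libraries labelled ΔNp63Δ/Δ, and at 50.03 and 62.3 FPKM in controls, and did not pass. Krt10 lay between 3.60 and 5.95 FPKM over the 8 libraries and did not pass.

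**Figure D5:**
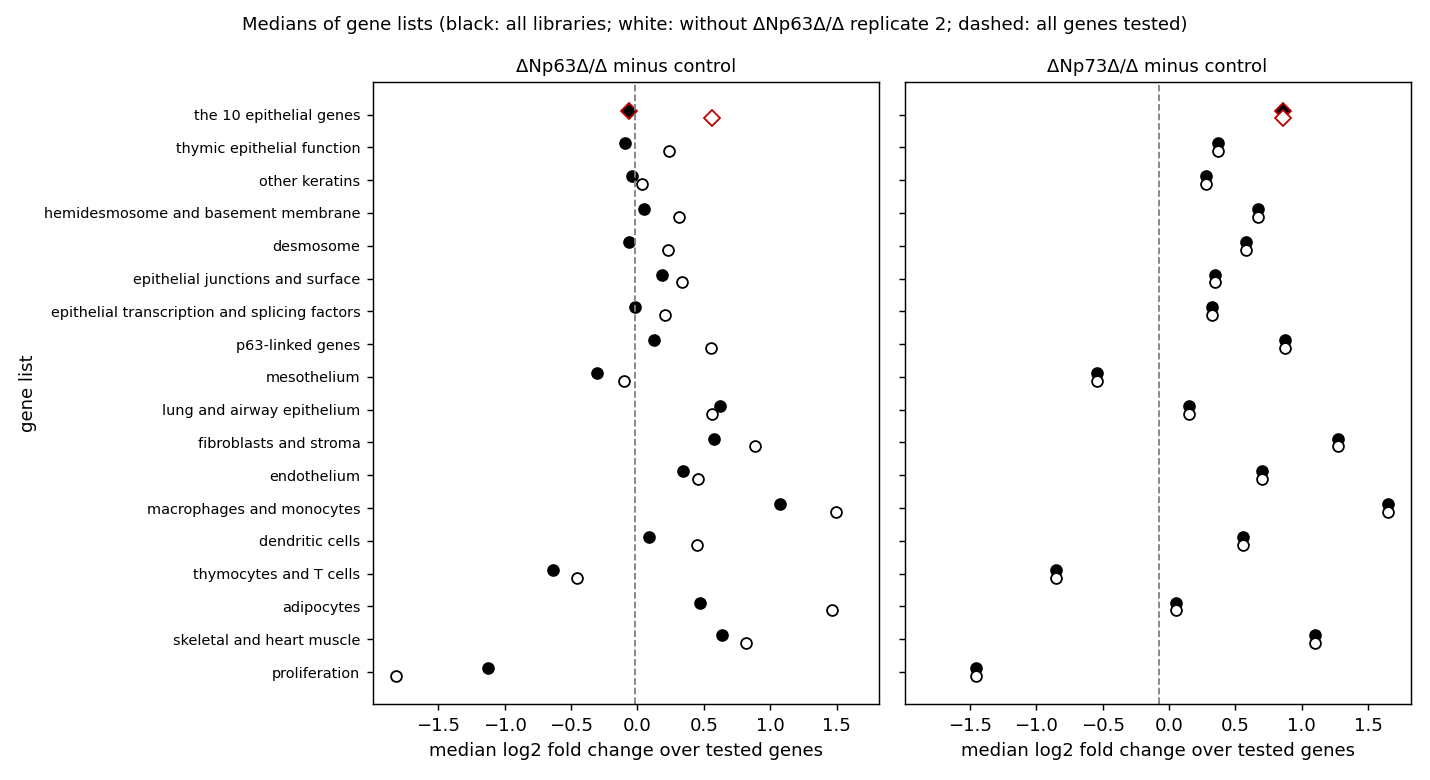
Median log2 fold change over the tested genes of each list against control, for the ΔNp63Δ/Δ label (left) and ΔNp73Δ/Δ (right), with all libraries (black) and without replicate 2 of the ΔNp63Δ/Δ label (white), and the median over all genes as a dashed line. The 10 epithelial genes (diamonds) sit at 0.86 in ΔNp73Δ/Δ, and lists of macrophages, fibroblasts and endothelium also lie to the right of the dashed line in both panels, with thymocytes and proliferation to its left.

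The plot of list medians sets genes of other cell types beside the 10 epithelial genes. In ΔNp73Δ/Δ against control the median log2FC was 1.65 over 12 macrophage and monocyte genes, 1.27 over 13 fibroblast and stroma genes, 0.70 over 13 endothelial genes and 0.56 over 9 dendritic cell genes. Of all genes named by these lists, only Col1a2, a collagen of fibroblasts, passed limma's adjusted test with all libraries. Col1a2 was at 32.5, 33.2 and 41.3 FPKM in ΔNp73Δ/Δ libraries, at 28.2, 18.7 and 18.1 FPKM in libraries labelled ΔNp63Δ/Δ, and at 8.01 and 6.23 FPKM in controls, with a log2FC of 2.18 in ΔNp73Δ/Δ against control (SE 0.23, limma adjusted p = 0.0475). The median log2FC in ΔNp73Δ/Δ against control was -0.85 over 18 thymocyte and T cell genes and -1.46 over 14 proliferation genes. The macrophage genes, led by Lyz2, C1qb and C1qc, summed to 1055 to 1386 FPKM in ΔNp73Δ/Δ libraries, 1094, 450 and 1160 FPKM in libraries labelled ΔNp63Δ/Δ and 397 to 454 FPKM in controls, so that replicate 2 alone of the ΔNp63Δ/Δ label overlapped the controls. The proliferation genes, led by Pcna, Top2a and Ccna2, summed to 328 to 542 FPKM in ΔNp73Δ/Δ libraries, 328 to 1024 FPKM in libraries labelled ΔNp63Δ/Δ and 1153 to 1195 FPKM in controls, with the 1024 FPKM in replicate 2 of the ΔNp63Δ/Δ label. In the ΔNp63Δ/Δ label against control the medians were 1.07 over the macrophage genes, 0.58 over the fibroblast genes and 0.34 over the endothelial genes with all libraries, beside -0.064 over the 10 epithelial genes. Without replicate 2 they were 1.49, 0.89 and 0.46, beside 0.56 over the 10. The part of these cell types in the results for the 10 genes was not tested.

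Epithelia from outside the thymus were looked for as well. Of 12 lung and airway genes 6 had no entry under their symbol in the deposited table, among them Sftpb, Sftpc, Foxj1 and Nkx2-1. The other 6 summed to 57.4 to 69.1 FPKM in ΔNp73Δ/Δ libraries, 16.8 to 64.9 FPKM in libraries labelled ΔNp63Δ/Δ and 17.6 to 17.8 FPKM in controls. The most abundant on average was Napsa, an aspartic protease of lung and kidney, at 43.7, 52.9 and 41.9 FPKM in ΔNp73Δ/Δ libraries, 41.9, 4.65 and 35.7 FPKM in libraries labelled ΔNp63Δ/Δ, and 9.45 and 9.24 FPKM in controls. Without replicate 2 of the ΔNp63Δ/Δ label, 2 of 5 tested lung genes rose in ΔNp73Δ/Δ and 1 in the ΔNp63Δ/Δ label. Of all genes, 16.8% and 11.7% rose. Napsa rose in both, by a log2FC of 2.18 (limma adjusted p = 0.000536) and 1.94 (limma adjusted p = 0.00134). The highest of the 10 genes in ΔNp73Δ/Δ was 1.47. The median log2FC of the 5 lung genes there was 0.15, with 4 above 0 and 1 below. Of 9 mesothelial genes 7 were measured, and they summed to 136 to 174 FPKM in ΔNp73Δ/Δ libraries, 47.1 to 169 FPKM in libraries labelled ΔNp63Δ/Δ and 62.2 to 73.5 FPKM in controls. That sum was mostly C3, a complement gene also made by macrophages, while Msln, the defining mesothelial marker, was at 1.03 to 2.68 FPKM in ΔNp73Δ/Δ libraries, 1.48 to 2.37 FPKM in libraries labelled ΔNp63Δ/Δ and 1.29 to 2.0 FPKM in controls. Over the 7 genes the median log2FC in ΔNp73Δ/Δ against control was -0.54, with 3 above 0 and 4 below. Without replicate 2 of the ΔNp63Δ/Δ label, 1 rose and 3 fell by limma's adjusted p, against 16.8% and 16.1% of all genes. In the ΔNp63Δ/Δ label against control the median was -0.30 with all libraries. No measured gene of either list was under 0.1 FPKM in all libraries, and their part in the results was not tested. Fat cell genes, which may come from adjoining tissue, summed to 2410, 197 and 205 FPKM in ΔNp73Δ/Δ libraries, 1887, 86.3 and 1312 FPKM in libraries labelled ΔNp63Δ/Δ, and 141 and 840.2 FPKM in controls. Replicate 2 of the ΔNp63Δ/Δ label was lowest for this sum, as for the sum of the 10 genes, and the other libraries stood in another order. The part of fat tissue was not tested.

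The genes whose profile over the 8 libraries was most like that of a member were found by Pearson's r of log2(FPKM + 1), given as a description over libraries that share replicate 2 of the ΔNp63Δ/Δ label as their extreme. For Krt5 the highest were Snx12 (0.997), Arid5b, Rap2b, Ptpn9 and Tmsb4x, with Krt14 at rank 83 (0.970). For Krt18 they were Diras2 (0.990), Itfg1, Kidins220, Tmem71 and Dnajc13, followed at rank 6 by Krt8 (0.983). For Cdh1 they were Twf1 (0.997), Nostrin, Ogfrl1, Vim and Lima1, with Cdh3 at rank 8 (0.993) and Epcam at rank 98 (0.978). For Lamb3 they were Rab6a (0.994), Rhobtb3, Klhl29, Zfp750 and Pclo, with Itgb4 at rank 334 (0.903). For Foxn1 they were Zfp442 (0.996), Vps41, 1110018G07Rik, Atp6v1d and Zfp943, with Krt8 the nearest member at rank 77 (0.948). Among the pairs of members computed, r was lowest between Foxn1 and Epcam (0.635) and highest between Cdh1 and Cdh3 (0.993).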

How the data were processed

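RNA-seq of 8 tumours was analysed from the authors' deposited table of FPKM per RefSeq transcript (16589 entries), quantile-normalised between libraries. TopHat2 2.0, Cufflinks 2.0 and the build mm9 are named in the submitters' processing notes, which do not say what each did. Quantile normalisation aims at the same distribution in all libraries, so a change in total RNA cannot be seen. With each library sorted by value, the libraries differed by over 1% at 2329 of the 16589 positions. Depth is unknown, so no counting interval is given. Symbols turned into dates (35) were restored from the RefSeq identifier. The entry with the highest mean per symbol was kept, and genes with at least 1 FPKM in at least 2 libraries were tested. On the log2(FPKM + 1) scale a linear model was fitted with limma 3.58.1 (R 4.3.3; all 8 libraries together, 5 residual degrees of freedom, empirical Bayes with intensity trend, two-sided), with Benjamini-Hochberg adjustment over all tested genes and a threshold of 0.05. A fold change on this scale understates the change of low genes. The fit was also run on simulated data, with each gene's spread capped at the median and no outlying library. That setting is easier than these data, so its outcome is not used here. Replicate numbers follow the accession order and only name a library. The 10 genes and all lists were chosen with earlier results of these data known, so lists are described by counts and medians without a test. Beyond the 10 genes, those named are the 3 most abundant of each epithelial list (of the other cell types, the ones a result turns on), any that passed in the 3 comparisons with all libraries, and the 5 most like a member of each role. A few genes under this rule are not reported here. Alternatives were another pseudocount, no filter, no trend, library weights, summed entries, models of only the groups compared and leaving out each library.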

Additional observations from a re-analysis of the deposited data

How the results depend on the processing

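No paired analysis was possible because the labels give no replicate numbers. In ΔNp73Δ/Δ against control the genes passing over the whole table numbered 7 with all libraries, 6569 with library weights, 3890 with only the groups compared, 16 and 18 with pseudocounts of 0.01 and 0.1, and 0 to 4212 when each library was left out. In the ΔNp63Δ/Δ label against control they numbered 12 with all libraries, 4480 with weights, 5 with only the groups compared, 6 with a pseudocount of 0.01 and 3 to 2882 when each library was left out. In ΔNp73Δ/Δ against the ΔNp63Δ/Δ label they numbered 7 with all libraries, 344 with weights, 3 with a pseudocount of 0.01 and 6 to 19 when each library was left out. Among the counts with a library left out, each highest was without replicate 2 of the ΔNp63Δ/Δ label. Of the 10 genes, the 9, 4 and 3 that passed with weights in these 3 comparisons, the 7 with only the ΔNp73Δ/Δ and control libraries, and the 7, 3 and 0 without replicate 2 were the exceptions. Every other alternative gave 0, so leaving out each library gave 0 to 7 in ΔNp73Δ/Δ against control and 0 to 3 in the ΔNp63Δ/Δ label against control. The cause was not tested. The 10 log2 fold changes in ΔNp73Δ/Δ against control stayed above 0 in all these alternatives.

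In the ΔNp63Δ/Δ label against control the sign turned with library weights for Krt5 (0.66), Krt14 (0.54), Krt8 (0.42) and Foxn1 (0.20). It turned without replicate 2, over ranges of leaving out each library, for Krt5 (-0.53 to 0.66), Krt14 (-0.36 to 0.56), Krt8 (-1.002 to 0.56), Krt18 (-1.49 to 0.14) and Foxn1 (-0.62 to 0.35). Itgb4, at 0.0097 with all libraries, turned to -0.052 and -0.065 with pseudocounts of 0.1 and 0.01 and ranged from -0.23 to 0.42. In ΔNp73Δ/Δ against the ΔNp63Δ/Δ label Krt8 (-0.023 to 1.54) and Foxn1 (-0.16 to 0.81) turned without replicate 2. Of 765 list medians under the alternatives, 43 moved by at least the spread between replicates. That spread was the SD of a list's median over libraries within the groups compared, with all libraries kept. In comparisons with the ΔNp63Δ/Δ label it includes replicate 2. A shift from leaving that library out may therefore not count as moved. Precision was limited by 2 control libraries, 3 per deletion group and an unknown depth.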
